A study of Mus musculus with 8 samples.

Results

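The hippocampal RNA-seq counts were examined for 8 genes that make, pack and sense the inhibitory transmitter GABA or set the chloride gradient it acts on. The genes were taken by name from the count table, Gad1, Gad2, Slc32a1, Slc12a2, Slc12a5, Gabra2, Gabra5 and Gabrb2, and are 8 of 16397 genes in the table. All 8 passed the filter on low counts, which left 13707 protein-coding genes tested. Hippocampi of C57Bl/6J mouse embryos were compared at embryonic day 15.5 (E15.5) between 4 IUGR and 4 sham samples. In the IUGR group (intrauterine growth restriction), the pregnant dam carried an osmotic pump with U-46619, a thromboxane A2 analog that raises maternal blood pressure, from E12.5. The dams of the sham group carried a pump with vehicle from the same day, so that both groups share surgery and vehicle. Embryos of both sexes were used, and the sex of each sample was not given.

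The IUGR samples are titled T1-1, T1-3, T1-4 and T1-5 and the sham samples S1-4, S1-6, S3-1 and S3-4. The meaning of the letter and first digit was not given, so that a shared dam or litter behind T1 cannot be told apart from the treatment, and p-values measure only the spread between these samples. Markers of hippocampal and cortical glutamatergic neurons, Prox1 and Neurod6 among them, were present in every sample, with a sum, in normalised counts scaled to 1000000 (CPM), of 1063 to 1500 for IUGR and 858 to 1734 for sham samples. Of these 12 markers, 8 were lower in IUGR, 3 of them at an unadjusted p under 0.05, and 4 were higher, none at that p. Totals ran from 12919546 to 16672463 counts in the IUGR group and from 11212632 to 15405748 in the sham group. Summed markers of general neurons were higher in every IUGR sample (6315 to 6946 CPM) than in every sham sample (4591 to 5510 CPM), with 16 of 16 markers higher, 10 of them at an unadjusted p under 0.05 and none called. Summed markers of choroid plexus, the epithelium that secretes cerebrospinal fluid and lies beside the hippocampus, lay between 46.0 and 1222 CPM for IUGR and between 5638 and 12252 CPM for sham samples, and 15 of 15 tested markers were lower, 4 of them called. The part of either difference in the results on the GABA genes was not tested. Beside these marker counts, 11.1% of all tested genes had an unadjusted p under 0.05 and 1.46% were called in edgeR.

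GABA is made from glutamate by the decarboxylases GAD67 (Gad1) and GAD65 (Gad2) and loaded into synaptic vesicles by the transporter VGAT (Slc32a1). It opens GABA-A receptors, chloride channels built from alpha, beta and further subunits. Whether chloride then flows in or out depends on the importer NKCC1 (Slc12a2) and the neuronal exporter KCC2 (Slc12a5). In the developing hippocampus GABA first depolarizes neurons, because NKCC1 dominates, and KCC2 increases as neurons mature.

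None of the 8 genes was called in edgeR (Benjamini-Hochberg adjusted p no higher than 0.05 together with a log2 fold change beyond 1 in either direction), criteria that 1.46% of all tested genes met. At an unadjusted p under 0.05, 3 genes were higher in IUGR (Slc12a5, Gabra5 and Gabrb2) and 2 were lower (Slc12a2 and Gabra2), that is 5 of 8 beside 11.1% of all genes. In 0 of the 8 genes did the IUGR values lie wholly above or below the sham values, beside 7.14% of all genes. DESeq2 called 2 of the 8, Slc12a5 and Gabra5, beside 3.10% of all genes. A further method, limma-voom, called 0 of the 8 and 328 of all 13707 tested genes. The median log2 fold change of the 8 was 0.42, beside -0.02 over all tested genes, with 6 above 0 and 2 below, with Gad2 among the 6 at 0.00031. Because this is bulk RNA, fewer cells of a type and less RNA per cell cannot be told apart.

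**Figure D1:**
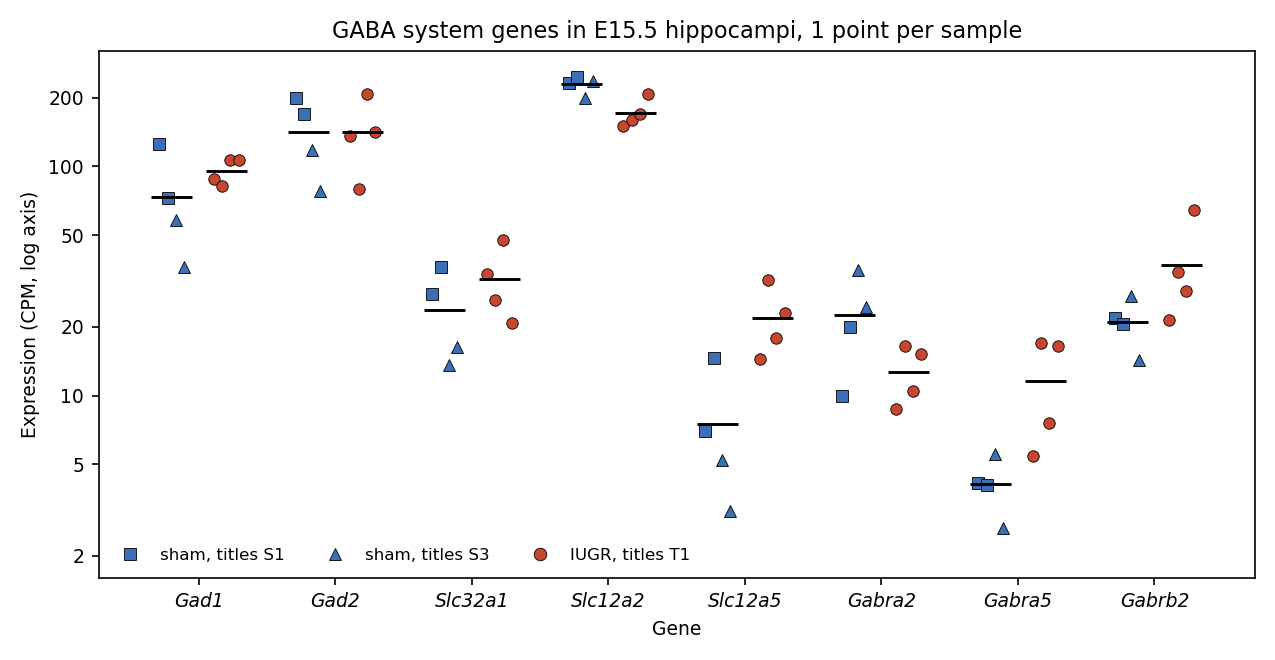
Expression in CPM (log axis) of the 8 GABA genes in each hippocampus, with sham samples as blue squares (titles S1) or triangles (titles S3), IUGR samples as red circles and the group mean as a line. The IUGR means of Slc12a5 (21.7 CPM) and Gabra5 (11.6 CPM) lie above their sham means (7.49 and 4.11 CPM), while the values of every gene overlap between the groups.

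Per exon length, the sham samples held most Gad2 transcript, at 24.1 RPKM (CPM per kilobase of exon, range 13.3 to 33.9), followed by Slc12a2 at 20.9 RPKM (18.2 to 22.5). These ranges overlapped. Gad1 followed at 9.60 RPKM (4.78 to 16.4), below all values of Slc12a2 but within reach of the lower values of Gad2. Slc32a1 at 8.42 RPKM overlapped with Gad1. The receptor subunits Gabrb2 (3.29 RPKM) and Gabra2 (2.93 RPKM) came next and overlapped with each other, and Gabra5 (1.38 RPKM) and Slc12a5 (1.01 RPKM) were lowest, also with overlapping ranges. In the IUGR samples the first 5 genes kept this order of mean RPKM. Gabra5 then stood at 3.91 RPKM (1.84 to 5.68), Slc12a5 at 2.92 RPKM (1.93 to 4.28) and Gabra2, now last, at 1.67 RPKM (1.15 to 2.16).

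The question for the synthetic enzymes was whether the capacity to make GABA differed in IUGR. Gad1 (ENSMUSG00000070880, chr2:70553072-70602014 in GRCm38, plus strand) measured 88.1, 82.0, 107 and 107 CPM in T1-1, T1-3, T1-4 and T1-5. It measured 125, 72.8, 58.6 and 36.5 CPM in S1-4, S1-6, S3-1 and S3-4. The 4 IUGR samples clustered closely, inside the wide sham range. The means were 96.0 ± 12.9 CPM in IUGR and 73.3 ± 37.8 CPM in sham samples (SD, n = 4 each). The log2 fold change was 0.39 (SE 0.31, 95% interval -0.29 to 1.07), with an adjusted p of 0.893 in edgeR. It was 0.83 without S1-4 and 0.17 without S3-4, and Gad1 was called in neither fit. A pseudogene copy, Gad1-ps, is also in the table with 0 to 11 counts per sample, against 512 to 1405 counts for Gad1, and reads could have been split between them.

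Gad2 (ENSMUSG00000026787, chr2:22622205-22693874, plus strand), the isoform tied to vesicle membranes, measured 136, 80.0, 208 and 142 CPM in the IUGR samples in the same order. In the sham samples it measured 199, 170, 118 and 78.4 CPM. The groups spanned nearly the same range, and both means were 141 CPM (SD 52.4 in IUGR and 53.6 in sham, n = 4 each). The log2 fold change was 0.00031 with a 95% interval of -0.71 to 0.71 (edgeR, adjusted p 1.00), which leaves room for a change of either sign.

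Slc32a1 (ENSMUSG00000037771, chr2:158610767-158615748, plus strand) measured 33.9, 26.0, 47.8 and 20.8 CPM in IUGR. The sham values were 27.8, 36.4, 13.6 and 16.3 CPM. S3-1 and S3-4 lay below all IUGR samples, whereas S1-4 and S1-6 lay among them. The means were 32.1 ± 11.8 and 23.5 ± 10.6 CPM (SD, n = 4 each), with a log2 fold change of 0.45 (SE 0.34, adjusted p 0.868 in edgeR). An antisense gene, Gm14205, shares 697 exon bases with Slc32a1 but had a mean count of only 5.63.

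In all 3 of these genes the S1 and S3 sham samples did not overlap. Of the 8 genes 5 did so, with Slc12a5 higher in S1 and Gabra2 higher in S3, beside 35.1% of all tested genes, and the summed glutamatergic markers also separated the titles (858 and 1229 CPM in S1, 1650 and 1734 CPM in S3). Gad1 was 72.8 to 125 CPM in the S1 samples and 36.5 to 58.6 CPM in the S3 samples, Gad2 170 to 199 against 78.4 to 118 CPM, and Slc32a1 27.8 to 36.4 against 13.6 to 16.3 CPM. The comparison with IUGR therefore depended on which shams were used. Against the S1 samples alone the log2 fold changes were -0.03 for Gad1, -0.36 for Gad2 and 0.03 for Slc32a1. Against the S3 samples alone they were 1.06, 0.57 and 1.15, and none was called in either fit.

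Markers of the interneuron lineage were set beside these genes. The 22 markers, which include the Dlx genes, Lhx6, Sst and Npy, summed to 1430, 1021, 1714 and 1429 CPM in T1-1, T1-3, T1-4 and T1-5 and to 1863, 1497, 938 and 1184 CPM in S1-4, S1-6, S3-1 and S3-4. The 3 samples with the most Gad2 (T1-4, S1-4 and S1-6) were also the 3 highest in this sum, and the 3 with the least Gad2 (S3-4, T1-3 and S3-1) were the 3 lowest. Gad1 and Slc32a1 followed the sum less closely. S1-4, with the highest sum, had 27.8 CPM of Slc32a1, below T1-4, S1-6 and T1-1, and T1-3, with the second lowest, had more Gad1 (82.0 CPM) than S1-6 (72.8 CPM). None of the 22 markers was called in edgeR, with 14 higher and 8 lower in IUGR. An unadjusted p under 0.05 was reached by 3, beside 11.1% of all tested genes. Set against the sum, Gad2 measured 98.5 ± 17.7 CPM per 1000 CPM of interneuron markers in IUGR and 103 ± 26.0 in sham samples. Gad1 measured 69.8 ± 9.25 and 52.3 ± 16.4, and Slc32a1 22.9 ± 5.84 and 16.9 ± 5.00 on the same scale (SD, n = 4 each, no test). The range of interneuron content between samples was not tested as a source of the spread in Gad1, Gad2 and Slc32a1.

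**Figure D2:**
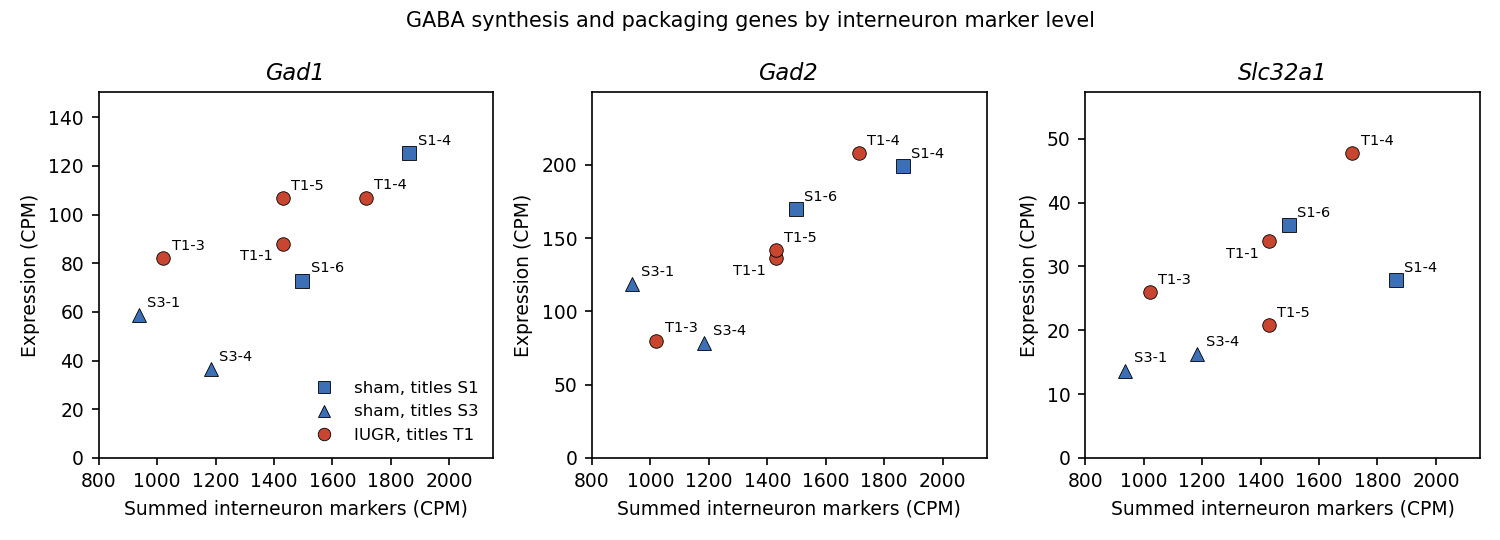
Expression in CPM of Gad1, Gad2 and Slc32a1 (vertical axes, from 0) against the summed CPM of 22 interneuron lineage markers (horizontal axes, from 800) in each named sample, with sham samples in blue and IUGR samples in red. The highest Gad2 values (T1-4, S1-4 and S1-6) lie at the highest marker sums, and IUGR and sham samples are mixed along the axis.

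The importer and the exporter of chloride had fold changes of opposite sign. Slc12a2 (ENSMUSG00000024597, chr18:57878678-57946821, plus strand) measured 150, 159, 170 and 207 CPM in T1-1, T1-3, T1-4 and T1-5. The sham values were 232, 246, 198 and 237 CPM. Only T1-5 (207 CPM) and S3-1 (198 CPM) crossed, and the other IUGR samples lay below every sham sample. The means were 172 ± 24.8 CPM in IUGR and 228 ± 20.8 CPM in sham samples (SD, n = 4 each). In edgeR this gave a log2 fold change of -0.41 (SE 0.13, 95% interval -0.71 to -0.12) at an adjusted p of 0.205. The log2 fold change was also below 0 against the S1 shams alone (-0.45) and the S3 shams alone (-0.30). NKCC1 is also abundant in choroid plexus epithelium, and the choroid plexus marker sums given above differed between the groups without overlap. Their part in the Slc12a2 difference was not tested.

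Slc12a5 (ENSMUSG00000017740, chr2:164960802-164999731, plus strand) measured 14.4, 31.9, 17.9 and 22.8 CPM in the IUGR samples T1-1, T1-3, T1-4 and T1-5. It measured 7.03, 14.5, 5.26 and 3.14 CPM in S1-4, S1-6, S3-1 and S3-4. A single sham sample, S1-6 at 14.54 CPM, lay just above the lowest IUGR sample, T1-1 at 14.39 CPM, and the other 3 shams lay below all IUGR samples. The counts behind these values were 44 to 519 per sample. The means were 21.7 ± 7.60 and 7.49 ± 4.96 CPM (SD, n = 4 each), a fitted difference of 2.92-fold. This corresponded to a log2 fold change of 1.54 (SE 0.43, 95% interval 0.59 to 2.49), with an adjusted p of 0.126 in edgeR and 0.00798 in DESeq2. Without S1-6, the highest sham sample for this gene, it passed in edgeR as well, with a log2 fold change of 2.09 (adjusted p 0.0347). It was not called when any of the other 7 samples was left out, with log2 fold changes from 1.28 (without S3-4) to 1.73 and adjusted p from 0.131 to 0.307. The log2 fold change was 1.04 against the S1 shams alone and 2.43 against the S3 shams alone, and neither was called.

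Slc12a5 has alternative first exons, and the windows around both RefSeq start sites are shown because this gene and Gabra5 had the largest log2 fold changes of the 8 in the fit of all samples. Each window runs from 250 bases before to 50 bases after the start, in GRCm38.p6 on the plus strand, and capitals mark the E-box letters CANNTG, which read the same on both strands. The upstream start, at chr2:164960596-164960895, gives the isoform KCC2a, and the downstream start, at chr2:164967738-164968037, gives KCC2b, the main isoform of mature neurons. The counts per gene do not separate the isoforms.
Slc12a5 upstream start: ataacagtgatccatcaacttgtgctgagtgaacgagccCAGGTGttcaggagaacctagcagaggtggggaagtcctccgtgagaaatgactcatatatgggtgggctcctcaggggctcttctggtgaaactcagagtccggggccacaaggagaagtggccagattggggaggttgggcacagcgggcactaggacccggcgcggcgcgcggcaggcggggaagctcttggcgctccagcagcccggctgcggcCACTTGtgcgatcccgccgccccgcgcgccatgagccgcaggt
Slc12a5 downstream start: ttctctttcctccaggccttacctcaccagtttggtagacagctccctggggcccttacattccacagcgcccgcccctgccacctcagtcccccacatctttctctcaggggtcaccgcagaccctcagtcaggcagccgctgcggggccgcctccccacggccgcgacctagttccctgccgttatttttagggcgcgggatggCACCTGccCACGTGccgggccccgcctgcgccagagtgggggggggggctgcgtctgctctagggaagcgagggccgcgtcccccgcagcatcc
Each window held 2 E-box matches, and 72.3% of 32851 mouse promoter windows of this length held at least 1. The share with 2 or more was not counted. The palindrome TGACGTCA, the cAMP response element, was in neither window and in 1.79% of all windows. These matches are descriptions of the sequence only.

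Because both transporters were measured in the same libraries, their ratio does not depend on library size. Per 100 Slc12a2 counts, the IUGR samples T1-1, T1-3, T1-4 and T1-5 held 9.57, 20.04, 10.5 and 11.04 Slc12a5 counts. The sham samples S1-4, S1-6, S3-1 and S3-4 held 3.03, 5.92, 2.65 and 1.32. The groups did not overlap on this ratio, in which T1-3 stood highest. Both counts are of whole tissue, so the ratio does not give the balance within neurons. The part of choroid plexus in the Slc12a2 counts was not tested. The means were 12.8 ± 4.87 and 3.23 ± 1.94 (SD, n = 4 each), and on the log2 scale the groups differed by 2.12, or 4.34-fold, with no test.

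Slc12a5 is expressed in neurons, and general neuron markers were higher in IUGR, so it was also set against their sum, a ratio chosen after the values were seen. Per 1000 CPM of summed neuron markers, Slc12a5 measured 3.23 ± 1.02 CPM in IUGR and 1.42 ± 0.926 CPM in sham samples (SD, n = 4 each), a 2.28-fold ratio of the means. The lowest IUGR value (2.28) lay below the highest sham value (2.76), so the groups overlapped. The same ratio for Gabra5 was 1.72 ± 0.844 and 0.778 ± 0.180 (SD, n = 4 each), or 2.21-fold, also with overlap (T1-1 at 0.866 against S3-1 at 1.01). For Gabrb2 it was 5.55 ± 2.76 and 3.97 ± 0.743 (SD, n = 4 each), again with overlap. These ratios depend on how the markers are weighted. The sum is led by Map2, Tubb3 and Dcx, with log2 fold changes of 0.27, 0.20 and 0.34, whereas the median over the 16 markers was 0.59, and Syt1 (1.08) and Nefl (1.24) were closer to Slc12a5.

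**Figure D3:**
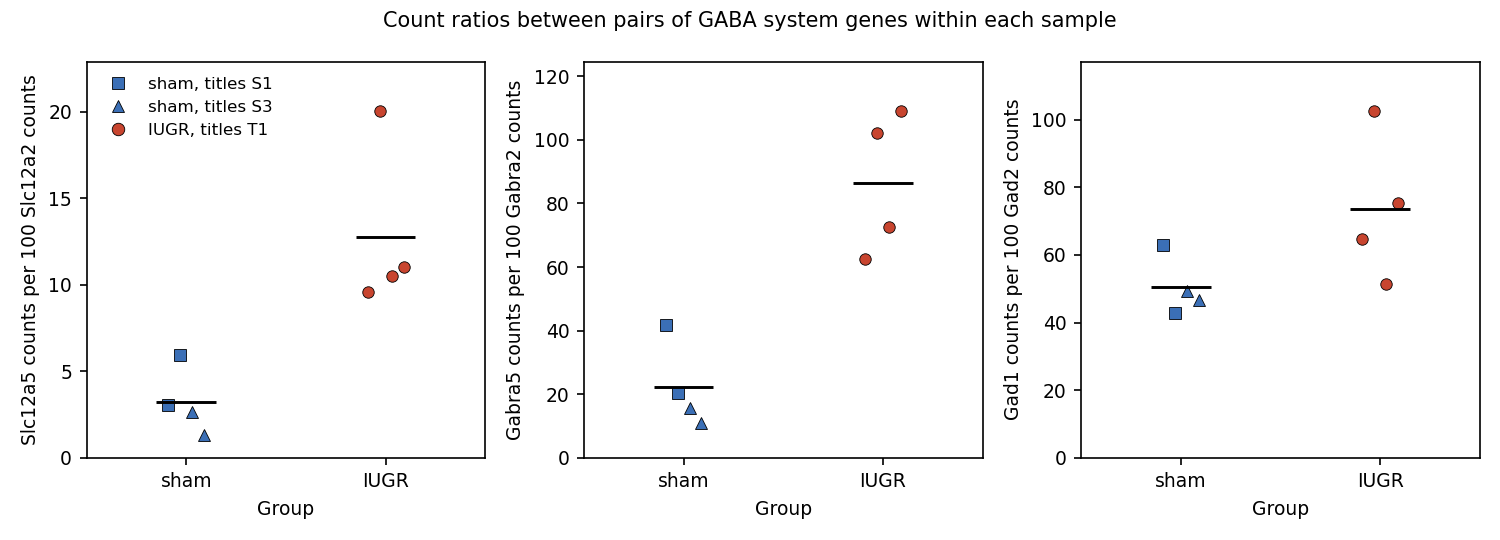
Counts of Slc12a5 per 100 counts of Slc12a2, of Gabra5 per 100 of Gabra2 and of Gad1 per 100 of Gad2 (vertical axes, from 0) in each sham (blue) and IUGR (red) sample, with the group mean as a line. The first 2 ratios do not overlap between the groups (9.57 to 20.04 against 1.32 to 5.92, and 62.4 to 109 against 10.9 to 41.7), whereas Gad1 to Gad2 does (51.4 to 103 against 42.8 to 63.0).

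Of 15 other chloride genes considered here, 14 were in the count table and 13 were tested. Of these, 1 was called in edgeR, beside 1.46% of all tested genes. Slc12a4, which encodes the potassium chloride cotransporter KCC1 found in many cell types, fell in IUGR. It measured 11.8, 15.1, 10.6 and 11.6 CPM in T1-1, T1-3, T1-4 and T1-5 and 36.6, 27.8, 19.9 and 27.2 CPM in S1-4, S1-6, S3-1 and S3-4, without overlap. The log2 fold change was -1.18 (SE 0.21, adjusted p 0.0252 in edgeR). The call was lost when T1-1, T1-4, S1-4, S1-6 or S3-4 was left out, with adjusted p from 0.0511 to 0.115 and log2 fold changes from -0.98 to -1.20. It was also lost without T1-1 and T1-4 together (-1.06, adjusted p 0.0951), against the S1 shams alone (-1.37, adjusted p 0.0994) and against the S3 shams alone (-0.90, adjusted p 0.231), and these last 2 fits called 0 and 2 of all tested genes in edgeR. The sign stayed below 0 in these fits, and the part of the lower choroid plexus markers was not tested. Neto2, an auxiliary protein of kainate receptors that also binds KCC2 and the most abundant gene of this list per length (sham 28.1 RPKM), had a log2 fold change of 0.35 (SE 0.13, adjusted p 0.315). The related exporter Slc12a7 (KCC4) had a log2 fold change of -0.12, and the 6 kinases that control these transporters, Wnk1 to Wnk4, Stk39 (SPAK) and Oxsr1 (OSR1), lay between -0.23 (Stk39) and 0.50 (Wnk4, SE 0.89), none called.

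Among the receptor subunits of the 8 genes, the alpha subunits Gabra2 and Gabra5 differed in direction. Gabra2 (ENSMUSG00000000560, chr5:70957597-71095849, minus strand), an alpha subunit of synaptic receptors abundant in the developing forebrain, measured 8.77, 16.5, 10.4 and 15.1 CPM in T1-1, T1-3, T1-4 and T1-5. The sham values were 9.98, 19.8, 35.5 and 24.2 CPM in S1-4, S1-6, S3-1 and S3-4. S1-4 lay inside the IUGR range and the other 3 shams above it. The means were 12.7 ± 3.70 and 22.4 ± 10.6 CPM (SD, n = 4 each), with a log2 fold change of -0.81 (SE 0.35, 95% interval -1.59 to -0.04, adjusted p 0.413 in edgeR). Against the S1 shams alone the difference was -0.20 and against the S3 shams alone -1.18.

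Gabra5 (ENSMUSG00000055078, chr7:57407672-57510059, minus strand), the alpha subunit of extrasynaptic receptors typical of the hippocampus, measured 5.47, 16.9, 7.58 and 16.5 CPM in T1-1, T1-3, T1-4 and T1-5. It measured 4.16, 4.07, 5.57 and 2.64 CPM in S1-4, S1-6, S3-1 and S3-4. Only T1-1 (5.47 CPM) lay below the highest sham, S3-1 (5.57 CPM), and T1-3 and T1-5 were far above the rest. The counts were low, 37 to 275 per sample. The means were 11.6 ± 5.94 and 4.11 ± 1.20 CPM (SD, n = 4 each), a fitted difference of 2.83-fold. Its log2 fold change was 1.50 (SE 0.39, 95% interval 0.63 to 2.37), with an adjusted p of 0.105 in edgeR and 0.00664 in DESeq2. It was nearly the same against the S1 (1.51) and the S3 shams (1.56), and neither was called (adjusted p 0.409 and 0.395 in edgeR). Gabra5 was not called in edgeR when any 1 sample was left out (log2 fold change 1.29 to 1.77, adjusted p 0.0592 to 0.288). T1-1 and T1-4 were also left out together because they lay apart from the other IUGR samples in earlier results of these data, with the lowest choroid plexus sums (69.5 and 46.0 CPM). They are also the lowest IUGR samples for Gabra5, and without them its log2 fold change was 2.02 (adjusted p 0.0241, called in edgeR).

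The start of Gabra5 is shown for the same reason. The RefSeq window of the same length lies at chr7:57510010-57510309 in GRCm38.p6 on the minus strand and is printed in the direction of transcription, again with CANNTG in capitals.
Gabra5 start: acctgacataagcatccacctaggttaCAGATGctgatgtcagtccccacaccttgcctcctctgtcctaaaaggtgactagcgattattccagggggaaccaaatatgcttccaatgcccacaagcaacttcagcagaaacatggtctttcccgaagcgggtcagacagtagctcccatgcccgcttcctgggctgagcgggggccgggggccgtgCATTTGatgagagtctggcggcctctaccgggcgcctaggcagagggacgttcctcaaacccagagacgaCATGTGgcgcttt
It held 3 E-box matches, where 72.3% of all windows held at least 1 and the share with 3 was not counted. It held no TGACGTCA or TATAAA. Among the 10 windows of the 7 GABA genes with a window, the Gad1 window and 1 of 3 Gabrb2 windows had a TATAAA match on either strand. The share over all windows was 13.6%.

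Per 100 Gabra2 counts, the IUGR samples held 62.4, 102, 72.6 and 109 Gabra5 counts in T1-1, T1-3, T1-4 and T1-5. The sham samples held 41.7, 20.5, 15.7 and 10.9 in S1-4, S1-6, S3-1 and S3-4. In T1-3 and T1-5 both alpha subunits thus had about equal counts, which are not corrected for exon length (2974 bases for Gabra5, 7640 for Gabra2). Per exon length, T1-3 held 5.68 RPKM of Gabra5 and 2.16 RPKM of Gabra2. The groups did not overlap on this ratio, which was chosen after the values were seen and was not tested (86.6 ± 22.6 and 22.2 ± 13.6, SD, n = 4 each).

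Gabrb2 (ENSMUSG00000007653, chr11:42419757-42629028, plus strand), a beta subunit of many mature receptors, measured 21.4, 34.5, 28.7 and 64.3 CPM in T1-1, T1-3, T1-4 and T1-5. The sham values were 21.9, 20.4, 27.1 and 14.3 CPM. T1-5 was far above all other samples, and T1-1 lay within the sham range. The means were 37.2 ± 18.8 and 20.9 ± 5.27 CPM (SD, n = 4 each), with a log2 fold change of 0.83 (SE 0.32, 95% interval 0.11 to 1.55, adjusted p 0.332 in edgeR). Without T1-5 the log2 fold change was 0.43. The values against each sham title alone were 0.83 and 0.90.

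Together with the 3 subunits above, 10 tested GABA-A subunit genes are described here, and they were ordered by chromosome, a grouping chosen after the values were seen. On chromosome 7 the log2 fold changes of Gabra5 and Gabrg3 (0.93) were above 0, and they stayed so in all 19 alternative fits. On chromosome 5 all 4 were below 0, Gabra2, Gabra4 (-0.78), Gabrb1 (-0.32) and Gabrg1 (-0.12). These signs held in 15 of 19 alternatives, with 1 of the 4 genes above 0 when T1-1, T1-4 or both were left out and against the S1 shams alone. Gabrg1 ranged from 4.42 CPM in T1-1 to 46.5 CPM in T1-5, and its log2 fold change was -0.88 without T1-5 and 0.24 without T1-1. On chromosome X, Gabra3 was at 1.30, Gabre at 0.44 and Gabrq at -0.01 (SE 0.27), the last on either side of 0 between alternatives.

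**Figure D4:**
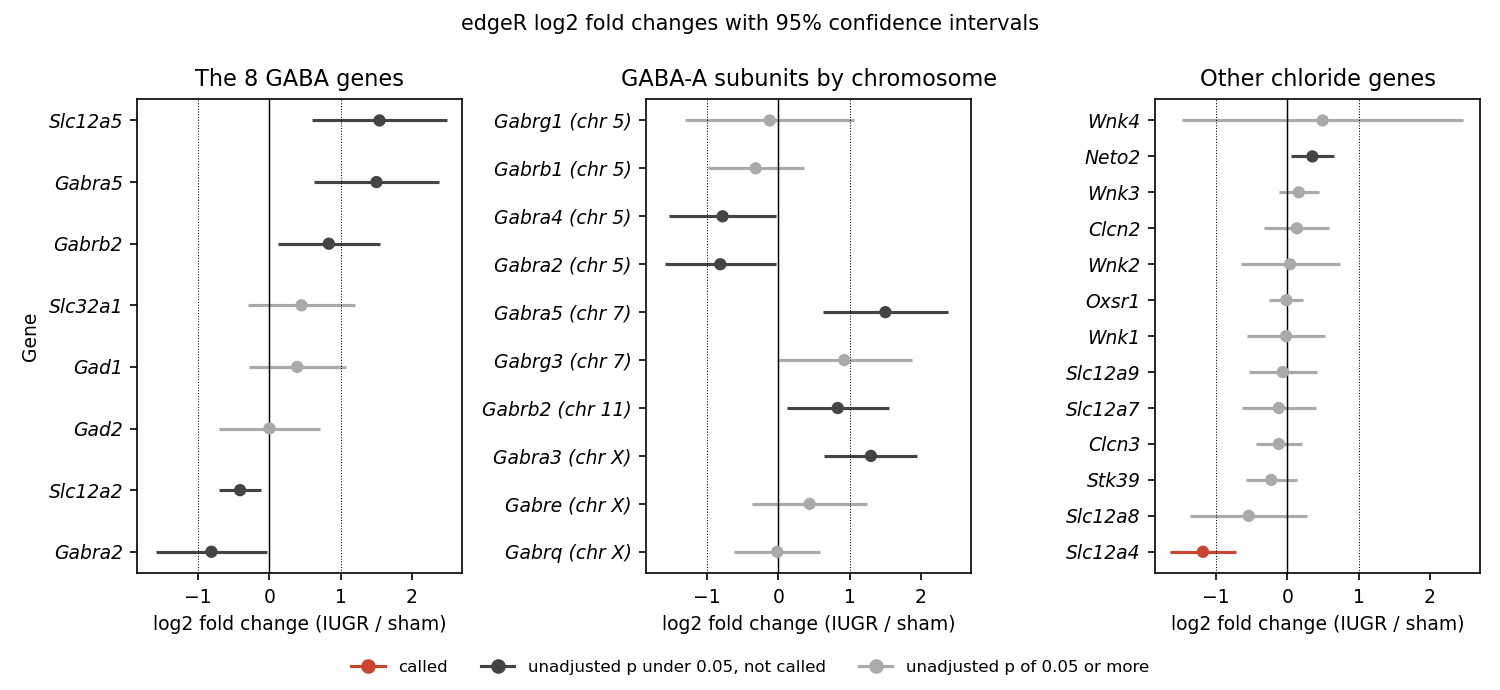
edgeR log2 fold changes (IUGR over sham, horizontal axes) with 95% confidence intervals for the 8 GABA genes, 10 tested GABA-A subunits ordered by chromosome and 13 other chloride genes, with dotted lines at -1 and 1. The points of the 4 subunits on chromosome 5 lie below 0 (not all of them in 4 of 19 alternatives) and those of Gabra5 and Gabrg3 on chromosome 7 above, and only Slc12a4 (red) was called.

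Of the 7 tested subunits described here outside the 8 genes, none was called in edgeR, beside 1.46% of all tested genes. DESeq2 called 1 of them, Gabra3, beside 3.10% of all tested genes. In edgeR 2 had an unadjusted p under 0.05, beside 11.1% of all tested genes. Gabra3, an alpha subunit abundant before birth, measured 13.0, 31.7, 19.6 and 20.5 CPM in T1-1, T1-3, T1-4 and T1-5 and 8.60, 12.2, 7.30 and 6.42 CPM in S1-4, S1-6, S3-1 and S3-4. These values did not overlap (log2 fold change 1.30, SE 0.29, adjusted p 0.0606 in edgeR and 0.00134 in DESeq2). Gabra3 was called in edgeR with no count filter (1.33, adjusted p 0.0493) and without T1-1 and T1-4 (adjusted p 0.0369), its 2 lowest IUGR samples. It was not called in edgeR when any 1 sample was left out (adjusted p 0.0533 to 0.194), against the S1 shams alone (0.424) or against the S3 shams alone (0.158). Per length Gabra3 stood at 5.40 RPKM in IUGR and 2.20 RPKM in sham samples. Gabra4, the most abundant of the 7 per length in the shams (4.27 RPKM), was 12.6 to 16.8 CPM against 11.7 to 45.5 CPM for the shams (log2 fold change -0.78, SE 0.34, adjusted p 0.417), with S3-4 highest. The log2 fold change of Gabra4 was -0.37 without S3-4, -0.07 against the S1 shams alone and -1.20 against the S3 shams alone.

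The lists of genes acting beside the GABA-A receptor held no call in edgeR. None of the 5 tested genes of the GABA-B receptor, the metabotropic receptor for GABA, had an unadjusted p under 0.05, and the most abundant, Gabbr1, had a log2 fold change of 0.25 (SE 0.12, adjusted p 0.545). None of the 4 tested genes of GABA uptake and breakdown considered here did either. The most abundant of them, the transaminase Abat, had a log2 fold change of 0.28 (SE 0.18). Of 17 genes of inhibitory synapses none was called in edgeR. An unadjusted p under 0.05 was reached by 2, or 11.8% of the 17, beside 11.1% of all tested genes. Iqsec3, a binding partner of gephyrin, was 9.07 to 15.7 CPM against 4.79 to 9.44 CPM for the shams (log2 fold change 1.01, SE 0.27, adjusted p 0.113 in edgeR and 0.0151 in DESeq2). Lhfpl4, which anchors GABA-A receptors to neuroligin, had a log2 fold change of 0.53 (SE 0.20, adjusted p 0.307). The scaffold gene Gphn itself had one of 0.16 and Gabarap, the most abundant of the list per length, of -0.07.

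The tested genes whose centred log2 CPM profiles over the 8 samples lay nearest to each GABA gene were listed by root mean square difference. For Gad2 they were Slc18a2, Syt6 and the interneuron transcription factor Sp9, at 0.15 to 0.18, where Gad2 itself varied by 0.50 around its own mean. For Gad1 they were 8430408G22Rik, Fam65b and Nrxn3 (0.16 to 0.20), and for Slc32a1 Tmem132e, Olig2 and Dlgap3 (0.20 to 0.26). Slc12a5 was nearest to Slc27a2, Tmem130 and Gng4, at 0.18 to 0.23 where its own variation was 1.05. Gabra5 was nearest to Spock3, Samd9l and Tenm1 (0.23 for each), and Gabrb2 to Vmn2r29, Lingo2 and Galnt13 (0.17 to 0.20). Slc12a2 was nearest to Lurap1, Rpgrip1l and Slc7a2 (0.07 to 0.10), and Gabra2 to Apobec1, Sln and Prph (0.17 to 0.30).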

How the data were processed

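Total RNA of E15.5 hippocampi was sequenced as single reads on ribosome-depleted stranded libraries. Per the labels, the submitters' processing notes name Novoalign 2.8 and mm10 (GRCm38). The deposited values were raw counts per gene, made by the authors and not normalized. The counting program, annotation and strand setting were not given in the sources used here. Groups were taken from the treatment label. Of 16397 genes, 16124 matched GENCODE M21, which gave positions and exon lengths, and 14564 coded for protein. Of these, 13707 had mean counts over the 8 samples from 10 up to but not including 50000 and were tested. The limits are those of the study, and applying them to the mean was a choice made here. The 8 samples were compared with edgeR 4.0.16 (quasi-likelihood test, TMM normalization, Benjamini-Hochberg adjustment over all tested genes) in R 4.3.3. DESeq2 1.42.0 and limma 3.58.1 (voom) were alternatives, as were other normalizations, filters and samples. CPM were counts scaled to a TMM-effective library of 1000000, and RPKM were CPM per kilobase of exon. The log2 CPM of the profile search used a prior count of 2. The edgeR step was tested on simulated data. Libraries held 11212632 to 16672463 counts, and all pairs within a group differed beyond sampling noise (chi-square per degree of freedom 29.5 to 78.8), so each counted as 1 sample. Low counts (44 to 519 for Slc12a5, 37 to 275 for Gabra5) limit precision.

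The 8 genes, the pathway and the marker lists were chosen with earlier results of these data known. Named were the 8 genes, every pathway gene that was called or had an unadjusted p under 0.05, the most abundant gene per length of each pathway list and the 3 nearest profiles of each of the 8, along with subunits and regulators named by their role. Promoter sequences are from RefSeq (GRCm38.p6, 7 of the 8 genes matched, 10 windows). Some genes of the pathway lists are not reported here, and counts over a list leave them out.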

Additional observations from a re-analysis of the deposited data

Results flagged for a closer look

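The Slc12a5 count per 100 Slc12a2 counts stood apart in 1 IUGR sample. T1-3 held 20.04, whereas the other 3 IUGR samples held 9.57 to 11.04, and the gap was 0.86 of the group's whole range, above Dixon's 95% critical value for 4 samples. This was 1 of 18 groups of values examined, and chance marks about 1 group in 20. The log2 ratios, -2.32 in T1-3 and -3.39 to -3.18 in the other 3, were not examined in this way, so the flag holds only for the ratio itself. Without T1-3 the log2 fold change of Slc12a5 was 1.33 (adjusted p 0.241 in edgeR).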

How the results depend on the processing

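No paired analysis was possible because no label says that the numbers in the sample titles, some of which recur in both groups, pair the samples. In edgeR 0 of the 8 GABA genes were called, with or without the fold criterion. The count was 2 in DESeq2, 0 in limma-voom and 1 without T1-1 and T1-4. It was 0 to 1 when 1 sample was left out (1 without S1-6, Slc12a5). In limma-voom the adjusted p was 0.0563 for Slc12a5 and 0.163 for Gabra5. The number at an unadjusted p under 0.05, 5, was 3 against the S1 shams alone, 3 without T1-1 and T1-4 and 3 to 6 with 1 sample left out, where over all tested genes 1520 became 1071, 1946 and 1135 to 1602. No gene was without overlap, but 2 were with RLE normalization, 1 with upper-quartile normalization, 2 without a count filter, 2 at a mean count of at least 50, 4 against the S1 and 5 against the S3 shams alone, 3 without T1-1 and T1-4 and 0 to 4 with 1 sample left out. Fewer samples leave fewer values to overlap, and over all genes the number without overlap went from 979 of 13707 to 2180 of 13723 (S1), 2460 of 13719 (S3), 3027 of 13818 (without T1-1 and T1-4) and 1153 to 1525 (1 sample left out). It was 994 of 13707 (RLE), 965 of 13707 (upper-quartile), 1100 of 14564 (no count filter) and 715 of 11907 (mean of at least 50). Signs turned for Gad1 against the S1 shams (log2 fold change -0.026), for Gad2 against the S1 shams (-0.36), without T1-1 and T1-4 (-0.35) and with 1 sample left out (-0.25 to 0.26), and for Slc32a1 without T1-1 and T1-4 (-0.0069); the causes were not tested. Slc12a2, Slc12a5, Gabra2, Gabra5 and Gabrb2 kept their sign in all 19 alternatives. The log2 difference of the Slc12a5 to Slc12a2 ratio was 1.53 to 2.71 in 12 alternatives. Over all genes, 200 were called in edgeR, 425 in DESeq2, 328 in limma-voom, 73 at a mean count of at least 50, 241 of 13818 without T1-1 and T1-4, 0 and 2 against the S1 and S3 shams alone and 24 to 302 with 1 sample left out.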

Other observations

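Markers of further cell types were summed in each sample. Radial glia markers summed to 3519 to 4191 CPM (IUGR) and 3797 to 4538 CPM (sham), with overlap. Markers of meninges had sums of 80.2 to 2820 CPM for IUGR, with T1-3 highest, against 275 to 559 CPM for the shams. The GABA transporter Slc6a13 is itself 1 of the 10 genes in this sum. It ranged from 1.69 CPM in T1-4 to 59.3 CPM in T1-3 and was 2.57 to 8.05 CPM in sham samples. Vascular markers summed to 479 to 696 CPM and 397 to 537 CPM, and microglia markers to 73.8 to 282 CPM and 87.8 to 120 CPM, in IUGR and sham samples. Erythroid markers summed to 667 to 2162 CPM and 1069 to 1631 CPM, and oligodendrocyte precursor markers to 101 to 220 CPM and 72.9 to 133 CPM. None of the genes of these 6 lists was called in edgeR. An unadjusted p under 0.05 was found for 1 radial glia, 4 vascular and 2 oligodendrocyte precursor genes, beside 11.1% of all tested genes. The part of these cell types in the GABA results was not tested.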
